A study of Rattus norvegicus with 4 samples.

Results

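The genes described here encode the machinery that docks, primes and fuses secretory vesicles, measured in rat pancreatic islets after intrauterine growth restriction (IUGR). The set of 38 genes was chosen by gene name, with earlier results of these data known. It covers SNARE proteins, a SNARE regulator, synaptotagmins, Rab3 and Rab27 GTPases with a further Rab, their effectors, priming factors, complexins and SNARE disassembly enzymes. Every non-control probe that carried one of these names was taken, which gave 44 of the 30367 probes on the array and 36 of the 38 genes. Rab37 and Sytl2 had no probe under their names. Of the 36 genes with a probe, 34 were bright enough to be tested among 20011 genes or unnamed probes, and Syt1 and Rims1 were not.

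Islets of Sprague Dawley rats were compared at postnatal day 14 in 2 groups of 4 samples. The IUGR pups were born to dams whose uterine arteries had been ligated on both sides at embryonic day 18, and the control pups to dams that had sham surgery at that day. Each of 4 two-colour arrays on 1 slide held total RNA of 1 IUGR sample and 1 control sample, with IUGR in Cy5 on arrays 1 and 2 and in Cy3 on arrays 3 and 4. The labels give no sex, litter or number of pups per sample, so the p-values measure the spread between these samples, which may in part be technical.

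In an endocrine cell, hormone granules are brought to the plasma membrane by Rab GTPases and the effectors that bind them. Priming factors then help SNARE proteins on the granule and on the plasma membrane to zip into a complex that pulls the membranes together. Synaptotagmins and related calcium sensors couple the final fusion step to calcium entry, and an ATPase with its adaptors takes the spent complexes apart for reuse. In beta cells this chain carries glucose-stimulated insulin secretion.

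No member passed the test. With limma and a Benjamini-Hochberg adjusted p under 0.05, 0 of the 34 tested members were called, as were 0 (0%) of the 20011 genes tested, and the smallest adjusted p of any gene was 0.339. At an unadjusted p under 0.05, 8 members were found (23.5%), against 13.7% of all genes. Of these, 7 were higher in IUGR (7.13% of all genes) and 1 was lower (6.54% of all genes). The 7 were Rab3a, Unc13a, Rab27a, Napa, Nsf, Syt7 and Syt4, and the other was Rab3d. Ratios are given throughout as log2 of IUGR over control, so that a positive value means more signal in IUGR, with the moderated SE of the fit. Their median over the 34 members was 0.11, against 0.01 over all genes tested. The mean ratio was above 0 in 24 of the 34 members (70.6%), against 53% of all genes. With median centring in place of loess, 17 of the 34 members were above 0. Their median was then 0.01, against -0.05 over all genes. In that setting 3 members had an unadjusted p under 0.05, against 5.93% of all genes.

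**Figure D1:**
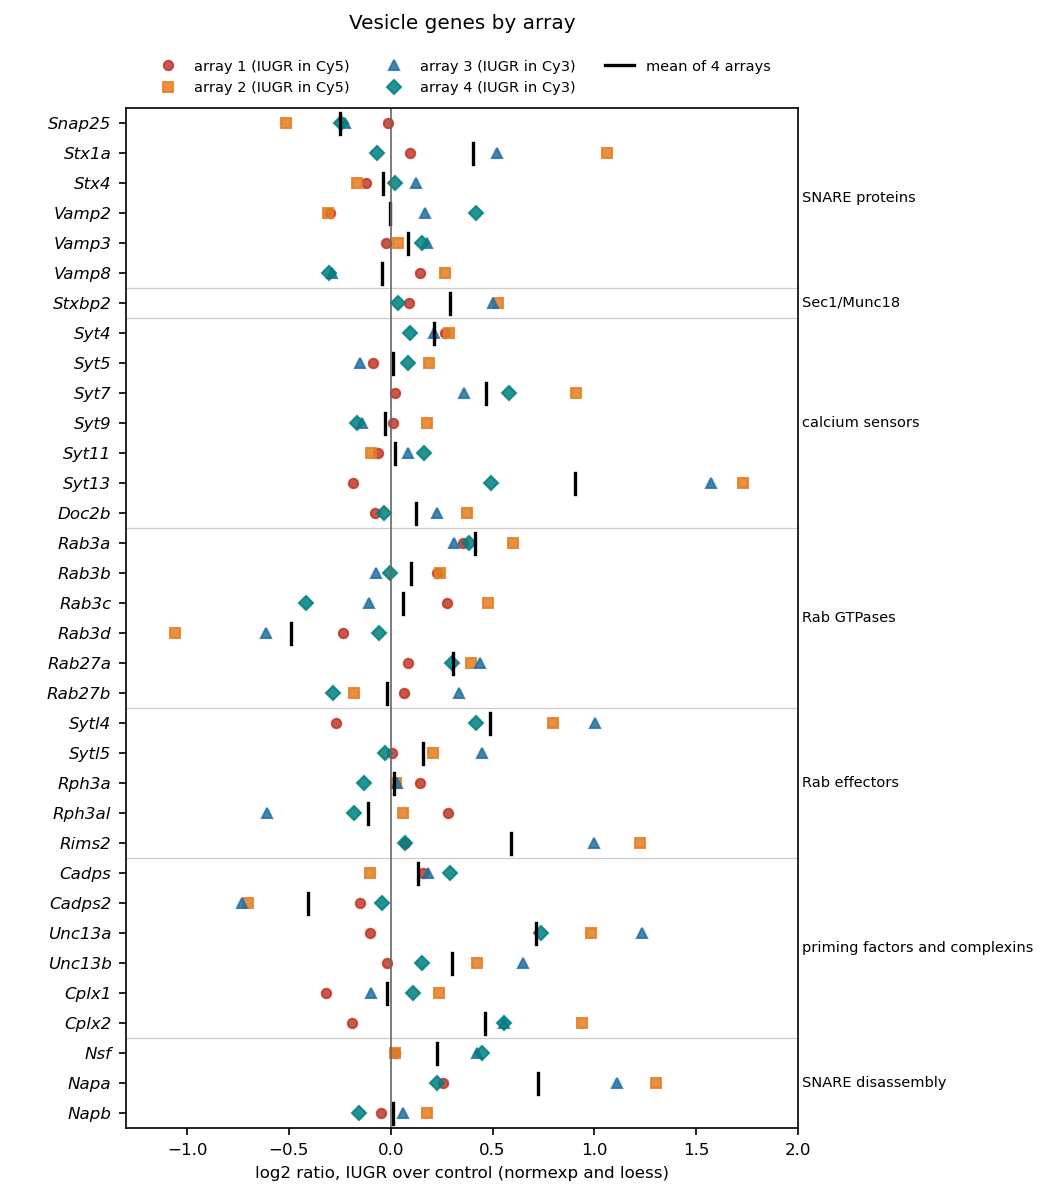
Log2 ratio of IUGR over control (x axis) of the 34 tested vesicle genes (rows, grouped by role) on each of the 4 arrays, with a bar at the mean of the 4. Rab3a lies between 0.31 and 0.60 on all arrays, whereas Syt13 spans -0.18 to 1.73, and most genes scatter on both sides of 0.

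The arrays did not carry the same pattern. The median ratio of the 34 members was 0.01, 0.24, 0.20 and 0.08 on arrays 1 to 4. The ratio was above 0 in 18 members on array 1 (52.7% of all genes), in 26 on array 2 (52.2% of all genes), in 24 on array 3 (52.1% of all genes) and in 20 on array 4 (49.1% of all genes). Array 1 stood apart across all genes, since its ratios had r = 0.13 with array 2, r = -0.23 with array 3 and r = -0.30 with array 4, whereas pairs among the other arrays had r from 0.37 to 0.63. These correlations are across genes, which are not independent replicates, and arrays of a slide share its hybridisation. Before normalization, the log2 difference in median signal between the IUGR and the control channel was 1.68 on array 1 and -2.42 to -1.55 on the others. No spot was saturated. Without array 1, 15 members had an unadjusted p under 0.05 (12 higher, 3 lower in IUGR), against 31.1% of all genes. Without array 2 this count was 2, against 4.69% of all genes. Without array 3 it was 1, against 2.36% of all genes, and without array 4 it was 8, against 11% of all genes. No member had an adjusted p under 0.05 in any of these fits.

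Ratios had the same sign on all 4 arrays in 11 members (32.4%), against 20.7% of all genes. They were above 0 on every array in 8 members (11% of all genes) and below 0 on every array in 3 (9.7% of all genes). A further 6 members lay below 0 on array 1 and above 0 on arrays 2, 3 and 4, a pattern held by 16.4% of all genes, and 0 members showed its mirror image, held by 15.3% of all genes. With array 1 set aside, 14 members were above 0 on arrays 2, 3 and 4, against 27.4% of all genes. In 8 members both arrays of one dye orientation had one sign and both arrays of the other orientation the opposite sign, which held for 16.2% of all genes. The levels of the 4 IUGR samples and the 4 control samples overlapped in all 34 members, so 0 members were separated, against 2.98% of all genes.

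The probes of 8 members are printed to show the stretch of the transcript that each one reads. How far the values below depend on that stretch was not tested. They are 60-base sequences from the scanner files, written 5′ to 3′ on the transcript strand, with positions on the rat assembly rn4. The Rab3a probe lies at chr16:19190472-19190531 (minus strand) and the Rab3b probe at chr5:130283528-130283587 (plus strand). Capitals in these 2 mark the 37 of 45 aligned bases (82.2%) that they share.
Rab3a: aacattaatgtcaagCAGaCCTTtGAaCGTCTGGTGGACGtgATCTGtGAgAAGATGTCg
Rab3b: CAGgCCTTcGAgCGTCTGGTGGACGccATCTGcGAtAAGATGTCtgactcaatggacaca

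The probes of Unc13a (chr16:18828770-18828829, minus strand), Syt7 (chr1:212931696-212931755, plus strand) and Napa are shown because these genes had an unadjusted p under 0.05. The 60 bases of the Napa probe cover 1018 bases of rn4 (chr1:76454248-76455265, plus strand), so the probe joins separate stretches of the gene. In each of the 3 sequences, 2 of the 3 forward reading frames hold no stop codon, and no letter is in capitals.
Unc13a: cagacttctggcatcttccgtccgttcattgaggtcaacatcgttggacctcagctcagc
Syt7: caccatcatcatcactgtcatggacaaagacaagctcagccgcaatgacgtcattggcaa
Napa: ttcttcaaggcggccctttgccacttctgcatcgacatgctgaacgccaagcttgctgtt

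The remaining sequences belong to genes that were read by more than 1 probe. The 5′ probe is shown for Cadps (chr15:14197442-14197501, plus strand), for Syt4 (chr18:23810667-23810726, minus strand) and for Snap25 (chr3:124893320-124893379, plus strand). Capitals in the Snap25 probe mark a stop codon at its 3′ end, in the forward reading frame that starts at its first base. In addition, 1 other forward frame of this probe holds no stop codon.
Cadps: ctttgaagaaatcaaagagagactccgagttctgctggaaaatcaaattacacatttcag
Syt4: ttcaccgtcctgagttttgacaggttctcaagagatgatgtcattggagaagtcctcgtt
Snap25: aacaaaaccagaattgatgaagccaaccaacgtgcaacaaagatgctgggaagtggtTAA

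Counts by role rest on 1 to 7 genes each and stand against the same shares over all genes, 53% with a mean ratio above 0 and 13.7% with an unadjusted p under 0.05. Of the 6 SNARE proteins, which form the fusion complex itself, 2 had a mean ratio above 0, and none had an unadjusted p under 0.05. Levels are given as normalised log2 intensities, which can be set against each other within a probe but not between probes. Snap25, a plasma membrane SNARE, had levels of 11.03, 10.73, 10.79 and 10.89 in the IUGR samples of arrays 1 to 4, against 11.04, 11.25, 11.02 and 11.13 in the control samples. The IUGR sample was the lower one on all 4 arrays, by 0.01 on array 1 and by 0.52 on array 2, and the groups touched where the highest IUGR sample met the lowest control sample. On average the ratio was -0.25 ± 0.11 (SE, n = 4, limma adjusted p = 0.339), -0.12 without array 2 and -0.59 with median centring. At its second probe, which lies 456 bases upstream and is printed above, the ratio was -0.23 ± 0.11. In islet tissue as a whole, fewer cells of a type and less RNA per cell cannot be told apart, here or for any other member.

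Stx1a, the plasma membrane partner of Snap25 in insulin granule fusion, had 11.52, 12.46, 11.79 and 11.73 in the IUGR samples, against 11.43, 11.40, 11.26 and 11.80 in the control samples. The IUGR sample of array 2 was the highest of the 8, and on array 4 the IUGR sample was the lower one. Its mean ratio was 0.40 ± 0.20 (SE, n = 4, limma adjusted p = 0.345). It was 0.64 without array 1, 0.16 without array 2 and 0.05 with median centring. Vamp2, the granule SNARE that completes the complex, had ratios of -0.30 and -0.31 on arrays 1 and 2 and of 0.17 and 0.42 on arrays 3 and 4. The sign thus followed the dye orientation, and the mean was -0.01 ± 0.08 (SE, n = 4, limma adjusted p = 0.976). That SE leaves out the difference between orientations, and the SD of the 4 ratios was 0.36. Its levels averaged 10.32 ± 0.18 in IUGR and 10.32 ± 0.21 in control islets (SD, n = 4 each).

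The other SNAREs lay near 0. Vamp3, found on granules and recycling endosomes and also cleaved by clostridial toxins, had a mean ratio of 0.09 with array values from -0.02 to 0.18. Stx4, another plasma membrane syntaxin of insulin release, averaged -0.04 (-0.16 to 0.12). Vamp8, an endosomal SNARE that also serves zymogen granules of acinar cells, averaged -0.04 (-0.30 to 0.27). Stx4 and Vamp8, like Vamp2, had opposite signs in the 2 dye orientations.

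Stxbp2 (Munc18-2), which binds syntaxins and steers them into complexes, was the member of the Sec1/Munc18 family in the set. It had 8.31, 7.87, 7.86 and 7.64 in the IUGR samples of arrays 1 to 4, against 8.22, 7.34, 7.36 and 7.60 in the control samples. The IUGR sample was higher on each array, by 0.53 and 0.50 on arrays 2 and 3 and by less than 0.10 on the other two. The sample with the highest control level, on array 1, exceeded 3 of the 4 IUGR samples. Over the 4 arrays the mean ratio was 0.29 ± 0.13 (SE, n = 4, limma adjusted p = 0.339), and over the alternatives it ran from 0.13 to 0.51.

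Of the 7 genes tested in the group of synaptotagmins and Doc2b, 6 had a mean ratio above 0, and Syt7 and Syt4 had an unadjusted p under 0.05. Syt7, a high-affinity calcium sensor of insulin and glucagon granules, had 7.50, 8.04, 7.25 and 7.59 in the IUGR samples, against 7.48, 7.13, 6.89 and 7.01 in the control samples. Both samples of array 1 were nearly level, while the ratio was 0.91, 0.36 and 0.58 on arrays 2, 3 and 4. The control sample of array 1 was higher than the IUGR sample of array 3, so the groups overlapped. This gave a mean ratio of 0.47 ± 0.17 (SE, n = 4, limma adjusted p = 0.339). Over the alternatives it ran from 0.24 with a term for channel brightness to 0.78 with Agilent processed signals, and it was 0.25 without array 2.

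Syt4, a synaptotagmin whose calcium-binding residues differ from those of Syt1 and which in mouse beta cells is tied to the maturation of insulin secretion, was read by 2 probes. At the brighter, 3′ probe it had 11.28, 11.22, 10.68 and 11.01 in the IUGR samples, against 11.01, 10.93, 10.47 and 10.92 in the control samples. The spread between arrays was larger than the ratio on any of them, and both samples of array 3 were the lowest of their groups. At that probe the mean ratio was 0.21 ± 0.08 (SE, n = 4, limma adjusted p = 0.339), and with median centring it was -0.12. At the 5′ probe printed above, the ratios were -0.14, 1.29, 0.61 and 0.04 on arrays 1 to 4.

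Syt13, an atypical synaptotagmin that lacks calcium-binding residues, had a mean ratio of 0.90 ± 0.36 (SE, n = 4, limma adjusted p = 0.339). Its array values ran from -0.18 on array 1 to 1.73 on array 2. Without array 2 the mean was 0.42, and with a term for channel brightness it was 0.29. Doc2b, a soluble calcium sensor of insulin granule fusion, averaged 0.12 (-0.08 to 0.38). Its mean ratio depended on the processing, at 0.31 with a normexp offset of 0 and 0.54 with Agilent processed signals. It was 0.66 with median centring and -0.02 with a term for channel brightness. Syt5 (0.01), Syt9 (-0.03) and Syt11 (0.02) averaged near 0, with array values between -0.17 and 0.19 for all 3. Among them, Syt9 and Syt11 had opposite signs in the 2 dye orientations. Syt1, the main calcium sensor at fast synapses, was not well above background in any of the 8 channels, and its 1 probe is not given a ratio.

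Of the 6 Rab GTPases tested, 4 had a mean ratio above 0 (53% of all genes) and 3 had an unadjusted p under 0.05 (13.7% of all genes). Rab3a, which tethers granules through its effectors and is needed in mice for normal insulin secretion, had 9.30, 9.13, 8.86 and 8.999 in the IUGR samples, against 8.95, 8.53, 8.55 and 8.61 in the control samples. The IUGR sample was higher on every array, by 0.35, 0.60, 0.31 and 0.39, and both samples of array 1 were the highest of their groups. The groups overlapped at 1 point, where the control sample of array 1 exceeded the IUGR sample of array 3. The mean ratio was 0.41 ± 0.08, a 1.33-fold higher level (SE, n = 4, limma adjusted p = 0.339), with the smallest unadjusted p of the members. Its unadjusted p stayed under 0.05 in 16 of 17 other settings of the processing. The exception was median centring in place of loess, with a ratio of 0.23 (limma unadjusted p = 0.493).

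Rab27a, which recruits granuphilin and other effectors to insulin granules, had 12.14, 11.95, 12.04 and 11.88 in the IUGR samples, against 12.05, 11.56, 11.60 and 11.58 in the control samples. Apart from array 1, every control sample lay below every IUGR sample. Its mean ratio was 0.30 ± 0.09 (SE, n = 4, limma adjusted p = 0.339), and with median centring it was -0.04. Rab3d, a Rab3 form known from zymogen granules of acinar cells, had 10.48, 10.58, 10.74 and 10.92 in the IUGR samples, against 10.72, 11.64, 11.35 and 10.98 in the control samples. On all 4 arrays the IUGR sample was the lower one, by over 1 on array 2 and by 0.06 on array 4, and the control sample of array 1 lay within the IUGR range. Its mean ratio was -0.49 ± 0.18, or 0.712-fold (SE, n = 4, limma adjusted p = 0.339). It was -0.28 without array 2, -0.22 with a term for channel brightness and -0.85 with median centring.

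The remaining Rab genes had smaller mean ratios. Rab3b, the Rab3 form whose probe overlaps in sequence with that of Rab3a, averaged 0.10 ± 0.07 (SE, n = 4). Its values were 0.23 and 0.24 on arrays 1 and 2, and -0.07 and -0.0026 on arrays 3 and 4. The sign of Rab3b thus followed the dye orientation. The probes of Rab3a and Rab3b share 37 of 45 aligned bases, and cross-hybridisation between the 2 transcripts was not tested. Rab3c averaged 0.06 with values of 0.28 and 0.48 on arrays 1 and 2 and of -0.10 and -0.41 on arrays 3 and 4, so its sign followed the dye orientation. Rab27b, the close relative of Rab27a, averaged -0.02 with array values from -0.29 to 0.33.

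**Figure D2:**
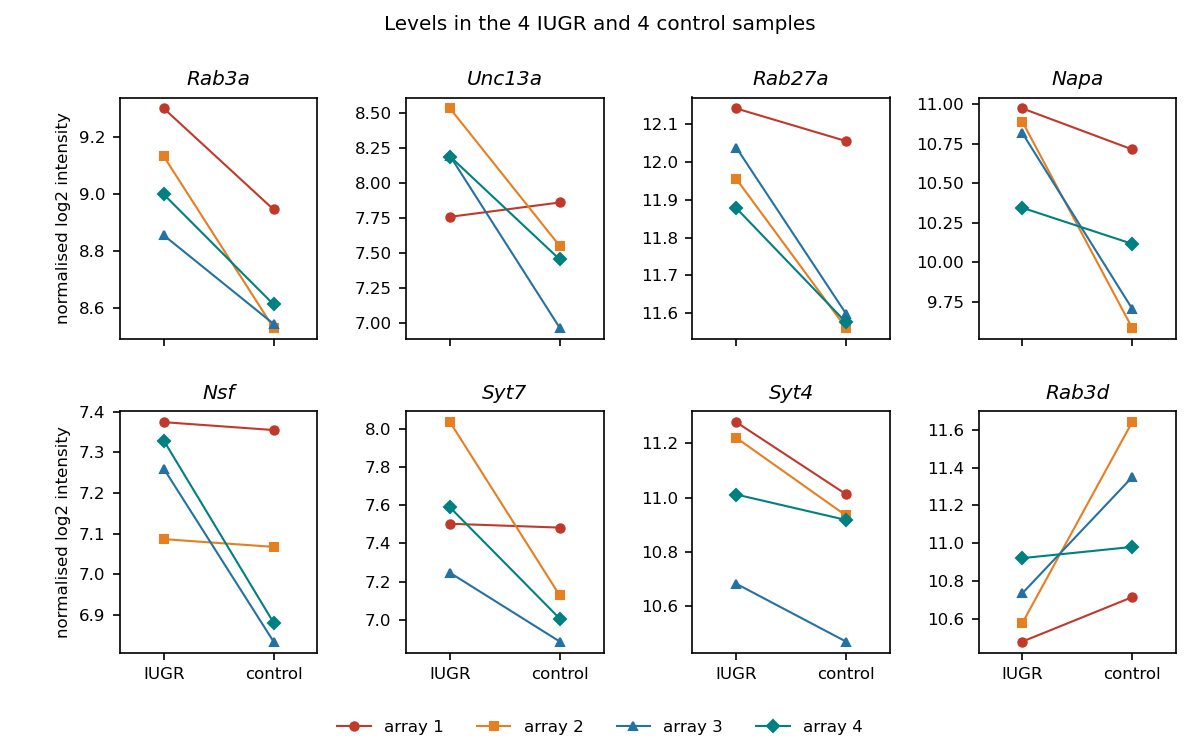
Normalised log2 intensity (y axis, a scale of its own in each panel) of the 8 vesicle genes with an unadjusted p under 0.05, in the 4 IUGR (left) and 4 control samples (right), with a line joining the 2 samples of an array. In every gene shown but Unc13a the lines of all 4 arrays slope the same way, and in Unc13a the line of array 1 slopes against the others.

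The Rab effectors link GTP-bound Rabs to the membrane and to the fusion machinery. Of the 5 tested, 4 had a mean ratio above 0 and 0 had an unadjusted p under 0.05. Sytl4 (granuphilin), which docks insulin granules and holds them at the plasma membrane, had 9.44, 9.12, 9.15 and 8.76 in the IUGR samples, against 9.71, 8.32, 8.15 and 8.34 in the control samples. The control sample of array 1 was the highest of the 8, and the other 3 control samples lay below all IUGR samples. Its ratios were -0.27, 0.80, 1.00 and 0.42, with a mean of 0.49 ± 0.21 (SE, n = 4, limma adjusted p = 0.339). The mean was 0.75 without array 1, 0.22 without array 2 and 0.15 with a term for channel brightness. The other probes of Sytl4 gave 0.54 and 0.41.

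Rims2, a scaffold that binds Rab3 and priming factors at the docking site, had 8.60, 9.08, 8.59 and 8.25 in the IUGR samples, against 8.54, 7.85, 7.60 and 8.18 in the control samples. The samples of arrays 1 and 4 differed by 0.07 each, and those of arrays 2 and 3 by 1.22 and 1.00. Its mean ratio was 0.59 ± 0.25 (SE, n = 4, limma adjusted p = 0.339). It was 0.30 without array 2, 0.36 without array 3, 0.20 with a term for channel brightness and 0.28 when its 2 probes were averaged. Rph3al (Noc2), an effector that lacks the calcium-binding domains of rabphilin and that is needed in mice for regulated endocrine exocytosis, had 12.90, 13.11, 12.45 and 12.85 in the IUGR samples, against 12.62, 13.05, 13.05 and 13.02 in the control samples. The IUGR sample was higher on arrays 1 and 2 and lower on arrays 3 and 4, where IUGR was in Cy3. Its ratio averaged -0.11 ± 0.11 (SE, n = 4, limma adjusted p = 0.565).

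Sytl5, a synaptotagmin-like Rab27 effector, averaged 0.16 (-0.03 to 0.45), and Rph3a (rabphilin), a Rab3 effector with calcium-binding domains, averaged 0.02 (-0.13 to 0.14). Rph3a was dim, being well above background in 1 of 4 IUGR and 3 of 4 control channels. Rims1, the close relative of Rims2, was not well above background in any channel. Sytl2, a Rab27 effector known in mice from glucagon granules, had no probe under its name.

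Priming factors make docked granules ready to fuse, and complexins bind the assembled SNARE complex. Of the 6 tested, 4 had a mean ratio above 0. Unc13a (Munc13-1), which opens syntaxin for SNARE assembly, had 7.76, 8.53, 8.19 and 8.19 in the IUGR samples, against 7.86, 7.55, 6.96 and 7.45 in the control samples. On array 1 the control sample was higher by 0.10, and on the other arrays the IUGR sample was higher by 0.99, 1.23 and 0.74. The groups overlapped through array 1 alone. The mean ratio was 0.71 ± 0.21, or 1.64-fold (SE, n = 4, limma adjusted p = 0.339). It was 0.99, 0.44, 0.59 and 0.84 without arrays 1, 2, 3 and 4, and 0.38 with a term for channel brightness in the model. Its relative Unc13b (Munc13-2) averaged 0.30 ± 0.13 with array values from -0.02 to 0.65, and ran from 0.14 to 0.68 over the alternatives.

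Cadps (CAPS1) and Cadps2 (CAPS2) prime dense-core granules and had mean ratios of opposite sign. Cadps had 12.47, 12.60, 12.47 and 12.69 in the IUGR samples, against 12.31, 12.70, 12.29 and 12.40 in the control samples. The IUGR sample was the lower one on array 2 only, and the mean ratio was 0.13 ± 0.09 (SE, n = 4, limma adjusted p = 0.417). It was -0.22 with median centring and 0.42 when both probes were averaged. Cadps2 had 7.35, 7.66, 7.58 and 8.05 in the IUGR samples, against 7.50, 8.37, 8.31 and 8.09 in the control samples. On each array the IUGR sample was lower, by 0.70 and 0.73 on arrays 2 and 3 and by less than 0.20 on the others. Its mean ratio was -0.41 ± 0.16 (SE, n = 4, limma adjusted p = 0.339), and over the alternatives it ran from -0.72 to -0.20. The difference between the ratios of Cadps and Cadps2 was not tested.

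The 2 complexins also stood apart in value. Cplx2 averaged 0.46 ± 0.20 (SE, n = 4, limma adjusted p = 0.339), with array values from -0.19 on array 1 to 0.94 on array 2. Its mean was 0.18 without array 2 and 0.11 with median centring. Cplx1 averaged -0.02 ± 0.12 (SE, n = 4, limma adjusted p = 0.944), with array values from -0.32 to 0.24.

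The 3 genes of SNARE disassembly all had mean ratios above 0 (53% of all genes), and 2 of them had an unadjusted p under 0.05 (13.7% of all genes). Nsf, the ATPase that pulls spent complexes apart, had 7.37, 7.09, 7.26 and 7.33 in the IUGR samples, against 7.35, 7.07, 6.83 and 6.88 in the control samples. Its ratios were 0.02 on arrays 1 and 2, where IUGR was in Cy5, and 0.42 and 0.45 on arrays 3 and 4, where it was in Cy3. The mean ratio was 0.23 ± 0.07 (SE, n = 4, limma adjusted p = 0.339), an SE that has the dye difference taken out. Over the alternatives the mean ran from 0.13 with outlying backgrounds kept as measured to 0.59 with Agilent processed signals. Napa (alpha-SNAP), the adaptor that brings Nsf to the complex, had 10.97, 10.89, 10.81 and 10.34 in the IUGR samples, against 10.71, 9.58, 9.70 and 10.12 in the control samples. Again the IUGR sample was higher on every array, by 0.26 and 0.23 on arrays 1 and 4 and by 1.30 and 1.11 on arrays 2 and 3. The mean ratio was 0.73 ± 0.23, or 1.65-fold (SE, n = 4, limma adjusted p = 0.339). It was 0.46 without array 2, 0.41 with median centring and 0.37 with a term for channel brightness. Its brain-enriched relative Napb (beta-SNAP) averaged 0.01 with array values from -0.16 to 0.18.

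For 7 members more than 1 probe passed, so the ratio could be read at different places along the transcript. Cadps had a ratio of 0.71 ± 0.29 at its 5′ probe (SE, n = 4) and of 0.13 at its 3′ probe, 122280 bases of rn4 away. On arrays 1 to 4 the 5′ probe gave -0.27, 1.24, 1.35 and 0.55, against 0.16, -0.10, 0.18 and 0.29 at the 3′ probe. Rims2 had 0.59 at the 5′ probe and -0.03 at the 3′ probe, but the 3′ probe was dim, being well above background in 1 of 4 IUGR and 3 of 4 control channels, so its ratio says little. Rph3al had 0.17 and -0.11, and Syt4 had 0.45 and 0.21, at the 5′ and the 3′ probe. The 2 probes differed by less than 0.10 in Sytl4 (0.54 and 0.49), Snap25 (-0.23 and -0.25) and Cplx1 (-0.02 at both, with the 5′ probe well above background in 1 of 4 IUGR and 4 of 4 control channels).

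The same gap was present across the array. Among 2168 genes with more than 1 probe that passed, the 5′-most probe had the higher mean ratio in 66.1%, with a median difference of 0.09. Where the probes lay over 1000 bases of rn4 apart (1465 genes), it was higher in 73.3%, with a median difference of 0.16. By array this median was 0.02, 0.28, 0.30 and 0.04, so that arrays 2 and 3, where several members had their highest ratios, also had the largest gap. Its part in the ratios of the members was not tested. Napa, Unc13a, Syt7, Rab3a and Syt13 had 1 probe each and could not be read at another place.

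**Figure D3:**
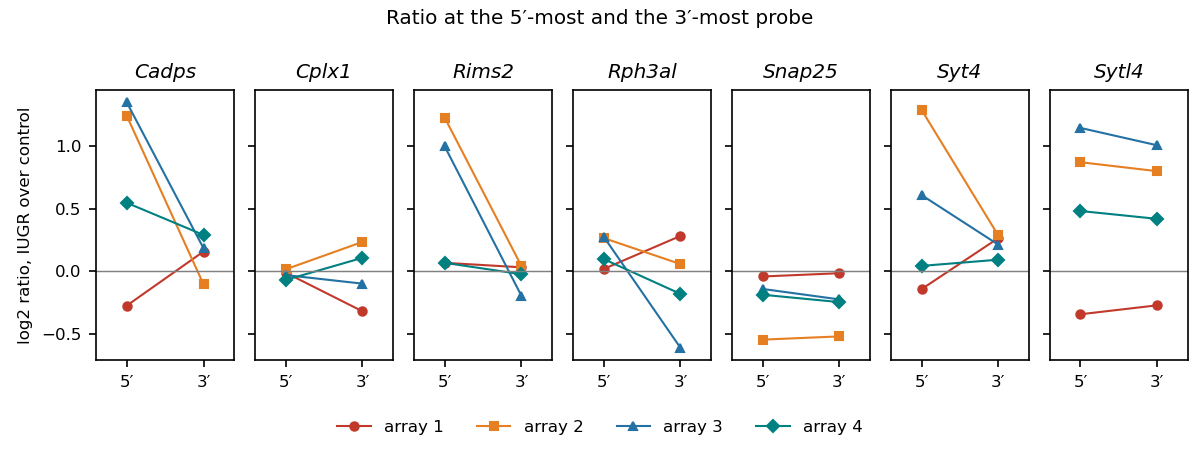
Log2 ratio of IUGR over control (y axis) at the 5′-most (left) and the 3′-most probe (right) of the 7 members with several probes, with a line for each of the 4 arrays. In Cadps the ratios of arrays 2 and 3 are above 1 at the 5′ probe and within 0.20 of 0 at the 3′ probe, whereas in Snap25 and Sytl4 the lines are nearly flat; the 3′ probe of Rims2 and the 5′ probe of Cplx1 were near background.

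Further genes of exocytosis, 84 in all, were read from lists of other SNAREs, SNARE regulators, synaptotagmins and Rab effectors, and active zone and exocyst genes. Of the 72 tested, 0 were called by limma. At an unadjusted p under 0.05, 4 were higher and 3 lower in IUGR, a smaller share (9.72%) than the 13.7% of all genes. The mean ratio was above 0 in 48 (66.7%), against 53% of all genes. Their median ratio was 0.10, close to that of the members. Among those with the smallest p in each list, Stx5, a Golgi syntaxin, had 0.37 ± 0.12, and Stx2, a plasma membrane syntaxin, had 0.42 ± 0.14 (SE, n = 4 each). Napg (gamma-SNAP), a relative of Napa, had -0.40 ± 0.15. Exoc6b and Exoc6, subunits of the exocyst tethering complex, had -0.35 ± 0.10 and -0.38 ± 0.15. Syt8 had -0.21 ± 0.08 and Myrip, a Rab27 effector that binds myosin, had 0.26 ± 0.10. All 7 had a limma adjusted p of 0.339.

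Islet markers were present in all samples: of 11 beta cell markers, 10 were tested, and these 10 were well above background in all 8 channels. Their mean level ran from 13.20 to 13.84 in IUGR and from 13.13 to 13.41 in control samples, their median ratio was 0.25 and 8 of the 10 lay above 0. By array the beta cell median was 0.06, 0.64, 0.05 and 0.04. Among these markers, the signs of Ins1, Ins2 and Iapp followed the dye orientation, above 0 where IUGR was in Cy5 and below 0 where it was in Cy3. The other beta cell markers tested did not have this pattern. The 5 delta, PP and epsilon cell markers all had ratios below 0 (median -0.39). Acinar markers were also bright, at 13.72 to 14.96 in IUGR and 13.35 to 14.81 in control samples (13 of 15 tested, all 13 above 0, median 0.40). Their array medians of 0.40, 0.16, 1.55 and -0.24 stand beside the ratios of -0.23, -1.06, -0.61 and -0.06 of Rab3d. Neuron and Schwann cell markers, whose cells also use many members, had a median of -0.18, with 4 of 12 above 0 and levels of 8.81 to 9.09 in IUGR against 9.03 to 9.48 in control samples. All 8 T and B lymphocyte markers had ratios below 0 (median -0.46) and an unadjusted p under 0.05. Only 4 of the 8 were well above background in all 8 channels. Mean levels of the 8 were 6.94 to 7.42 in IUGR against 6.91 to 9.04 in control samples. The 4 red blood cell markers tested all had ratios above 0 (median 0.60) and an unadjusted p under 0.05, with levels of 12.30 to 13.93 in IUGR against 12.18 to 12.74 in control samples. All 7 mast cell and granulocyte markers tested, of which 5 were well above background in all 8 channels, lay above 0 (median 0.53). Levels of the 7 were 8.81 to 9.52 in IUGR against 8.16 to 9.93 in control samples. Their array medians were -0.15, 0.80, 1.02 and 0.39, and those of the red blood cell markers were -0.29, 0.30, 1.35 and 1.08. These signs by array were held by 6 members, Sytl4, Unc13a and Syt13 among them, and by 16.4% of all genes. Of 6 alpha cell markers 3 lay above 0 (median -0.01), and of 7 duct cell markers 1 did (median -0.24). Median ratios were 0.23 for macrophage, 0.14 for endothelial, 0.02 for fibroblast and stellate, and 0.55 for adipocyte markers. None of these markers had an adjusted p under 0.05. The part of any of these cell types in the ratios of the members was not tested.

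**Figure D4:**
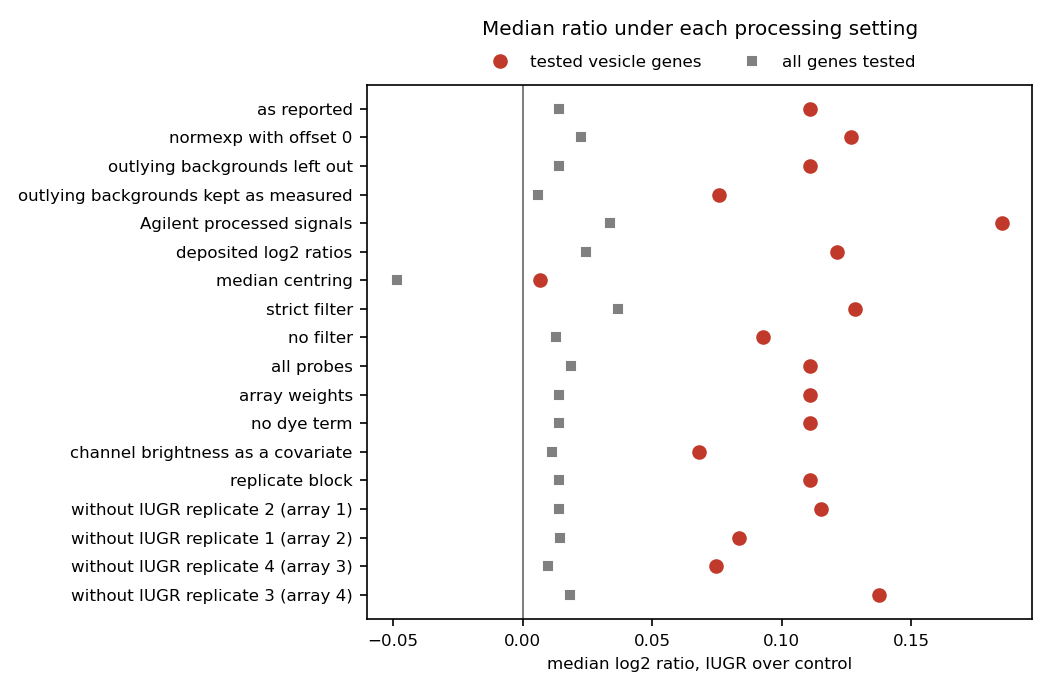
Median log2 ratio of IUGR over control (x axis) of the tested vesicle genes (circles) and of all genes tested (squares) as reported and under 17 other settings of the processing (rows). The median of the vesicle genes runs from 0.01 with median centring to 0.18 with Agilent processed signals, and lies to the right of that of all genes in each row.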

How the data were processed

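Agilent Feature Extraction 10.10.1.1 made the scanner files of array design 28282, per the file headers (protocol GE2_1010_Sep10). In the deposited files, mean signals and median local backgrounds are in units of intensity. They also carry a deposited log10 ratio of Cy5 over Cy3, and deposited flags, names, probe sequences and rn4 positions. The log2 ratios of the deposited value table were matched to the scanner files by row position. As Cy5 over Cy3 they correlated with the loess ratios at r from 0.896 to 0.970, with column medians from -0.029 to 0.008. Their normalization is not given in the sources used here. Per the submitters' processing notes, limma was used, with no version given.

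Mean signals were corrected with normexp (offset 50) and normalized by loess, in which the 1377 control spots had no weight. The software was limma 3.58.1 under R 4.3.3, together with statmod 1.5.0. Feature outliers were dropped. Where the local background was flagged as non-uniform (222, 44, 145 and 52 spots on arrays 1 to 4), the channel's median background on that array took its place. Replicate spots were averaged by probe, and the brightest probe stood for a gene. A gene was tested if measured on all 4 arrays and well above background in at least 2 of 4 IUGR or 2 of 4 control channels. Levels per channel were loess values after Aquantile scaling. The limma model held a dye term, with 2 residual and 2.76 prior degrees of freedom, and p-values were adjusted by Benjamini-Hochberg over all 20011 genes or unnamed probes. The fit was tested on simulated data with independent noise and with shifts larger than the mean ratio of any member. The number of arrays limits the precision.

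The members, lists, settings and alternatives were chosen with earlier results of these data known. Values on every array were given for members with an unadjusted p under 0.05 or the same sign on all 4 arrays, and for Snap25, Stx1a, Vamp2, Syt7, Rab3a, Rab27a, Sytl4, Rph3al, Unc13a and Cadps. Of the further exocytosis lists, the 2 genes of smallest p per list were named, except 1 that is not reported here.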

Additional observations from a re-analysis of the deposited data

How the results depend on the processing

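No member was called under any of 17 alternatives. Of all genes, 15 were called with median centring and 14 when channel brightness was a covariate. The count of members at an unadjusted p under 0.05 was 8 as reported, against 13.7% of all genes. It was 3 with Agilent processed signals (9.68% of all genes) and 3 with median centring (5.93% of all genes). It was 4 when channel brightness was a covariate (7.37% of all genes) and 4 with outlying backgrounds kept as measured (7.41% of all genes). Leaving out 1 array moved this count between 1 (2.36% of all genes) and 15 (31.1% of all genes). The members above 0 then ranged from 23 to 25, and the median of the members from 0.07 to 0.14. The lone array of an orientation is then assumed to vary like the others. Same-numbered IUGR and control samples deviated from their group means with r of -0.28, -0.05, -0.17 and 0.09. They lie on different arrays, whereas the samples of the same array had r from 0.09 to 0.33. Whether same-numbered samples share a litter or a batch was not tested. With the replicate number as a block, 7 members had an unadjusted p under 0.05 (11.0% of all genes) and 0 were called. Array weights cannot part the 2 arrays of an orientation. Over all alternatives 17 to 25 members lay above 0.

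The sign of 18 members held in all 17 alternatives, and 16 turned in some. The cause was not tested. With median centring, the ratio was -0.217 for Cadps, -0.037 for Rab27a, -0.245 for Rab3b, -0.098 for Rab3c, -0.121 for Syt4, -0.34 for Syt5, 0.47 for Syt9, -0.093 for Sytl5 and -0.278 for Vamp3. With a term for channel brightness it was -0.021 for Doc2b, -0.069 for Napb, 0.0058 for Rab27b, -0.0204 for Rab3c, -0.0497 for Syt5 and 0.016 for Vamp2. With outlying backgrounds kept it was -0.0060 for Napb, -0.022 for Syt5 and 0.0027 for Syt9, with the deposited ratios 0.003 for Syt9, and with all probes 0.027 for Rph3al. Without array 1 it was 0.12 for Cplx1, -0.013 for Rph3a and 0.012 for Syt9. Without array 2 it was -0.047 for Napb, 0.045 for Rab27b and -0.0596 for Syt5. Without array 3 it was 0.034 for Cplx1, -0.046 for Napb, -0.019 for Rab3c, -0.024 for Rph3a and 0.057 for Vamp2. Without array 4 it was 0.138 for Rab27b and -0.0499 for Syt5. Rph3a and Napb, and the untested Syt1 and Rims1, were limited by signal over background, since they were not well above it in all 8 channels.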
